A study of Mus musculus with 8 samples.

Results

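The 10 genes described here encode cytokines and chemokines that natural killer (NK) cells make when they are activated: Ifng, Tnf, Csf2, Lta, Ltb, Ccl3, Ccl4, Ccl5, Xcl1 and Il16. They were chosen by gene symbol, and all 10 of the 45706 genes of the deposited tables that carry these names were found and passed the filter on low counts, which left 14006 genes to be tested. The tuNK group holds 4 libraries titled as NK cells that had infiltrated a tumour, and the spNK group holds 4 libraries titled as NK cells of the spleen. The hosts were BALB/c mice, and both groups come from animals bearing a tumour under the skin, grown from CT26_β2m-/- cells, a murine colorectal carcinoma line without β2-microglobulin and so without MHC class I at its surface. Both tissues were digested with enzymes at 37 °C for 60 min, and the cells of the tumour tissue were enriched on a Percoll gradient. NK cells were sorted by magnetic beads and flow cytometry with markers that the labels do not name. The age of the mice and any pooling are not given. Nothing says that replicates are separate mice, and the p-values then describe the spread among these samples, which may be technical. In each of the 8 samples the title names one tissue and the tissue tag, like the source name, the other (spNK is tagged as tumour and tuNK as spleen), and every direction given here rests on the titles.

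NK cells act on other cells by killing them and by secreting factors. Interferon gamma, the product of Ifng, activates macrophages and raises antigen presentation. TNF and the lymphotoxins (Tnf, Lta, Ltb) belong to one ligand family encoded side by side in the major histocompatibility complex, and Csf2 encodes GM-CSF, a growth factor of myeloid cells. CCL3, CCL4 and CCL5 attract T cells, monocytes and other leukocytes, XCL1 attracts dendritic cells that carry XCR1, and interleukin 16 is cut from a precursor by caspase 3 and binds CD4.

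The libraries held 38745733 to 45404059 estimated counts in tuNK and 40560781 to 53886933 in spNK. Defining NK markers were present in every library, and the 9 listed NK markers summed to 3132 to 4462 CPM (counts per 1000000, scaled between libraries by the TMM method of edgeR) in tuNK and to 9937 to 14350 CPM in spNK. Mesenchymal tumour markers summed to 3053 to 4669 CPM in tuNK and to 10.9 to 43.7 CPM in spNK, and all 11 of them were called higher. T cell markers summed to 12.8 to 22.7 CPM in tuNK and 44.8 to 53.5 CPM in spNK. Cd8b1 and Cd5 among them averaged under 0.1 CPM in both groups. B cell markers summed to 0.842 to 2.05 CPM in tuNK and 17.3 to 38.7 CPM in spNK. Macrophage and monocyte markers summed to 63.4 to 79.6 CPM in tuNK and 43.8 to 269.8 CPM in spNK. The 10 macrophage and monocyte markers moved in opposite directions, with 2 called higher and 2 lower: Cd14 averaged 60.4 CPM in tuNK and 0.28 CPM in spNK, Lyz2 averaged 2.16 CPM in tuNK and 96.4 CPM in spNK, and Csf1r averaged 0.0836 CPM in tuNK and 2.83 CPM in spNK. The 28 measured genes expressed across leukocytes had a median log2 fold change of -1.67 (tuNK minus spNK), the 12 NK receptor and adaptor genes one of -1.92, and all tested genes one of 0.02. In such bulk samples fewer cells of a type and less RNA per cell cannot be told apart, so each of the 10 genes is also given after scaling the libraries to the leukocyte genes or to the NK genes.

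The 10 genes did not move as a block. Ccl5, Il16, Ccl3 and Ltb fell in tuNK, Xcl1 and Csf2 rose, and Ifng, Tnf, Lta and Ccl4 did not pass the test. After either list scaling, however, Ltb turned to a rise, Ccl3 was not called and the 4 uncalled genes were called higher. Those scalings called 78.9% (leukocyte genes) and 81.2% (NK genes) of all tested genes higher. The medians of all tested genes were then 1.75 and 1.94, above the values of Ltb and the 4 uncalled genes. With edgeR's quasi-likelihood test and p-values adjusted by Benjamini-Hochberg over all genes (threshold 0.05), 6 of the 10 were called, 2 higher and 4 lower, while 69.6% of all tested genes were called, 35.6% higher and 34.0% lower. Their median log2 fold change was -0.39. With the replicate number as a block the same count of 6 was called, against 68.2% of all genes (35.2% higher and 33.1% lower). The CPM values of the 2 groups did not overlap for the same 6 genes, and 67.1% of all tested genes had no overlap (34.4% with tuNK above and 32.7% with tuNK below spNK).

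**Figure D1:**
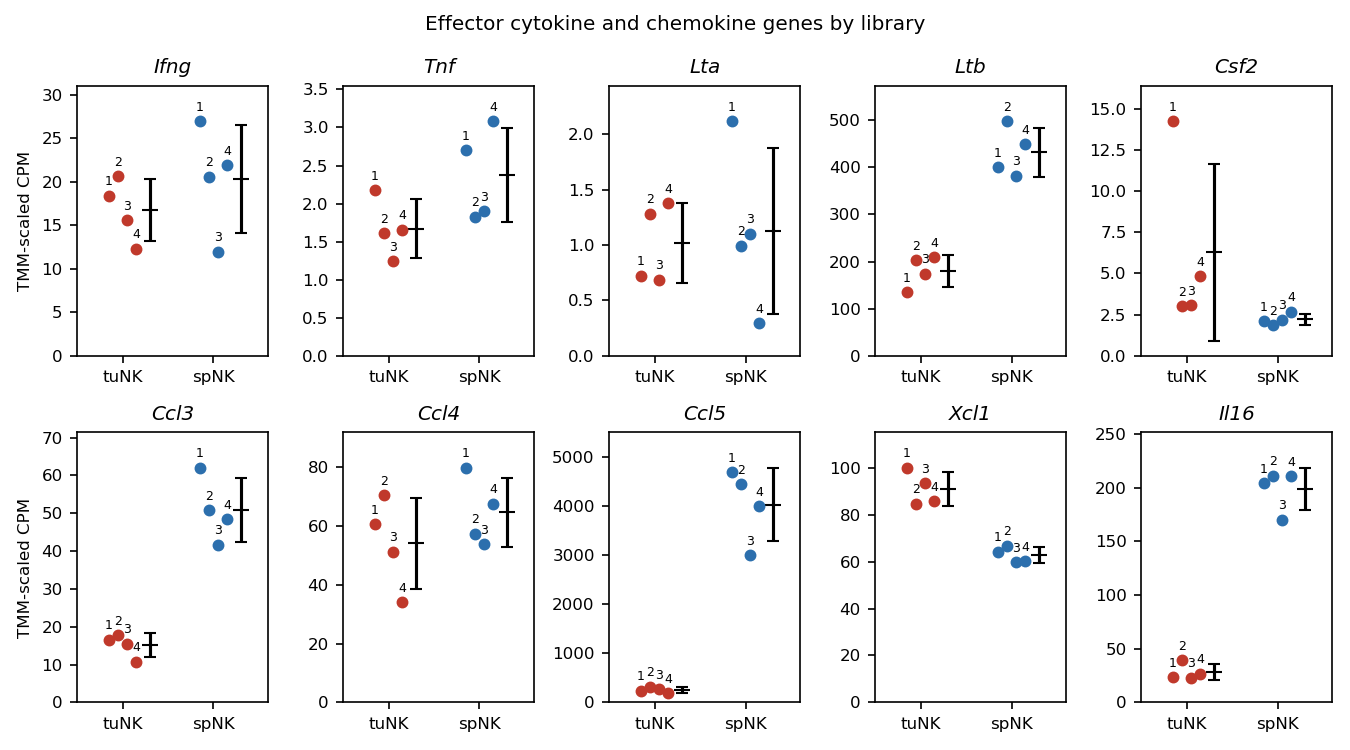
TMM-scaled CPM (linear axes from 0) of the 10 genes in each library, tuNK left of spNK; numbers are replicates, and the black bars are mean ± SD (n = 4). Ccl5, Il16, Ccl3 and Ltb lie lower in every tuNK library, Xcl1 and Csf2 lie higher, and the other 4 genes overlap, although with scaling to leukocyte or NK genes Ltb was called higher and Ccl3 was not called; in Csf2, tuNK 1 stands apart at 14.2 CPM.

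Levels per length placed the genes in a similar order in both groups. By mean TPM the order in tuNK was Ccl5, Xcl1, Ltb, Ccl4, Ccl3, Ifng, Csf2, Il16, Tnf and Lta, and in spNK it was Ccl5, Ltb, Xcl1, Ccl4, Ccl3, Il16, Ifng, Csf2, Tnf and Lta. The means spanned 720 ± 169 TPM (Ccl5) to 0.8 ± 0.261 TPM (Lta) in tuNK and 13675 ± 2721 TPM (Ccl5) to 1.06 ± 0.723 TPM (Lta) in spNK (SD, n = 4 each). In tuNK the library ranges of Ccl3 and Ifng overlapped, as did those of Ifng, Csf2 and Il16 and those of Tnf and Lta, while in spNK, among neighbours in the order, only Tnf and Lta overlapped.

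Ifng (ENSMUSG00000055170, chromosome 10, 118441046 to 118445892 on GRCm38) had 18.4, 20.6, 15.6 and 12.3 CPM in tuNK 1 to 4, against 26.9, 20.6, 12.0 and 21.9 CPM in spNK 1 to 4. The groups overlapped, and the lowest library of all was spNK 3. Its log2 fold change was -0.28 ± 0.24 (SE; adjusted p = 0.317, edgeR), while the fit that left out spNK 3 called it lower (-0.48, adjusted p = 0.0386). The NK markers summed to 9937 CPM in spNK 3, against 12240 to 14350 CPM in the other spNK libraries. Macrophage and monocyte, dendritic and B cell marker sums were highest of the group in spNK 3 (269.8, 615 and 38.7 CPM). The part of this in the Ifng result was not tested. Ifng had a higher log2 fold change than all 28 leukocyte genes and all 12 NK genes. Scaling to these lists moved the medians of all tested genes to 1.75 and 1.94. Below these medians, Ifng was then at 1.47 with leukocyte genes (adjusted p = 7.36e-05, edgeR) and at 1.68 with NK genes (adjusted p = 1.92e-05, edgeR). On the per-length TPM scale (transcripts per 1000000) it averaged 15.7 ± 4.25 TPM in tuNK and 22.5 ± 7.21 TPM in spNK (SD, n = 4 each).

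The genes of TNF and the lymphotoxins lie together on chromosome 17, with Ltb at 35194439 to 35196320, Tnf at 35199381 to 35202007 and Lta at 35203165 to 35205351, and 1157 bases separate Tnf from Lta. Ltb, which encodes the membrane anchor of the lymphotoxin heterotrimer, had 135, 203, 175 and 209 CPM in tuNK 1 to 4, against 399.8, 497, 382 and 449 CPM in spNK 1 to 4. No tuNK library reached the lowest spNK value. Its log2 fold change was -1.26 ± 0.14 (adjusted p = 1.74e-05, edgeR), but it was 0.46 when scaled to leukocyte genes (adjusted p = 0.00929) and 0.65 when scaled to NK genes (adjusted p = 0.00142), so the direction turned. Ltb is also a gene of B cells, whose 8 markers summed to 0.842 to 2.05 CPM in tuNK and 17.3 to 38.7 CPM in spNK, with 6 called lower, and their part in the result was not tested.

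Tnf, the gene of the ligand that activates NF-kB and can kill cells, had low counts, with 49 to 84 counts in tuNK and 93 to 136 counts in spNK. It had 2.17, 1.61, 1.25 and 1.66 CPM in tuNK 1 to 4, against 2.70, 1.83, 1.90 and 3.08 CPM in spNK 1 to 4, and only tuNK 1 reached into the spNK range. The log2 fold change was -0.51 ± 0.35 (adjusted p = 0.218, edgeR), and 1.22 after leukocyte scaling (adjusted p = 0.0115) or 1.43 after NK scaling (adjusted p = 0.00613). Lta, which encodes lymphotoxin alpha, had 0.725, 1.28, 0.686 and 1.38 CPM in tuNK 1 to 4, against 2.12, 0.994, 1.10 and 0.295 CPM in spNK 1 to 4. The spNK libraries spanned the tuNK range on both sides, with a low of 13 counts in spNK 4. The log2 fold change of Lta was -0.15 ± 0.59 (adjusted p = 0.841, edgeR), and without spNK 1 its sign turned (0.33). Scaled to leukocyte genes it was called higher (1.55, adjusted p = 0.0287). The log2 ratio of Ltb to Lta in TPM within a library differed by -1.35 on average, tuNK minus spNK (two-sided exact permutation p = 0.0571, adjusted p = 0.0667 over 7 ratios), which did not pass the threshold.

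The promoter of Ltb is printed because, of the 8 genes with a promoter window in the RefSeq table, only Ltb and Il16 held an NF-kB match. The window runs from 250 bases before to 50 bases after the RefSeq gene start (chr17:35194257-35194556, plus strand, GRCm38.p6). Capitals mark the NF-kB match, which begins at position -87 relative to the gene start, and 8.46% of all 32851 promoter windows of that length held such a match on either strand.
Ltb: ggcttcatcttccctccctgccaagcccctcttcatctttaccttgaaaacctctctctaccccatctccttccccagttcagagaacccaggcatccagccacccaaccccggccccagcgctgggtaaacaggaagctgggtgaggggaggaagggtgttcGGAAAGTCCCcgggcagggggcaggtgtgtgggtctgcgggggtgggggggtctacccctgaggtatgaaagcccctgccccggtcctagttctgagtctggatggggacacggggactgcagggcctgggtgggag

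Csf2 (chromosome 11, 54247271 to 54249667) had 14.2, 3.01, 3.08 and 4.82 CPM in tuNK 1 to 4, against 2.12, 1.86, 2.19 and 2.67 CPM in spNK 1 to 4. All 4 tuNK libraries lay above spNK, 3 of them by little and tuNK 1 by far. The log2 fold change was 1.51 ± 0.49 (adjusted p = 0.0177, edgeR), and without tuNK 1 it was 0.70 and not called (adjusted p = 0.0767). Scaled to leukocyte or NK genes Csf2 was higher by 3.27 or 3.51 (adjusted p = 1.76e-04 and 2.1e-04). tuNK 1 also held the most mesenchymal marker RNA of its group (4669 CPM, against 3053 to 3320 CPM in the other 3 tuNK libraries). It was the highest library for the AP-1 genes Fosb (1362 CPM, against 126.5 to 493.5 CPM in the other 3) and Jun (563 CPM, against 171 to 339 CPM), named after their values were seen. Markers of other innate lymphoid cells, which can also make GM-CSF, summed to 196 to 255 CPM in tuNK and 64.1 to 82.2 CPM in spNK, with 1 of 6 called higher and 3 lower, and with Il17rb and Il23r under 0.1 CPM in tuNK. The part of these in the Csf2 value was not tested. On log2 TPM with an offset of 1 the groups overlapped and differed by 0.83, which was not called (adjusted p = 0.11, limma).

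Ccl5 (ENSMUSG00000035042, chromosome 11, 83525778 to 83530518) had the highest level of the 10 genes in both groups. It had 775, 900.2, 707 and 496 TPM in tuNK 1 to 4, against 16359, 14765, 9957 and 13619 TPM in spNK 1 to 4. The highest tuNK library stayed more than an order of magnitude under the lowest spNK library. By mean TPM Ccl5 ranked 188 among all genes in tuNK and 2 in spNK. Its log2 fold change was -4.0 ± 0.20 on the CPM scale (adjusted p = 6.7e-08, edgeR), a 16-fold lower level, and 3.30% of the tested genes had a lower value. None of the 28 leukocyte genes and none of the 12 NK genes fell as far, and it stayed lower by either list scaling (-2.25 and -2.06, adjusted p = 3.03e-07 and 3.6e-07). Ccl5 averaged 252 ± 55.6 CPM in tuNK and 4038 ± 751 CPM in spNK. Ccl5 RNA is also found in T cells, whose 9 markers summed to 12.8 to 22.7 CPM in tuNK and 44.8 to 53.5 CPM in spNK, with 5 called lower. It is found in platelets too, and the 8 platelet and erythroid markers summed to 4.63 to 7.55 CPM in tuNK and 462 to 936.5 CPM in spNK, with all 8 called lower and Pf4 and Hbb-bs under 0.1 CPM in tuNK. The part of these cells in the result was not tested.

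Ccl3 and Ccl4 lie 13228 bases apart on chromosome 11, Ccl3 at 83647844 to 83649355 and Ccl4 at 83662584 to 83664683, and encode the related inflammatory proteins MIP-1α and MIP-1β. Ccl3 had 16.6, 17.8, 15.5 and 10.7 CPM in tuNK 1 to 4, against 62.0, 50.9, 41.7 and 48.5 CPM in spNK 1 to 4. Every tuNK value was under every spNK value. The log2 fold change was -1.74 ± 0.17 (adjusted p = 6.53e-06, edgeR), but 0.01 when scaled to leukocyte genes (adjusted p = 0.976) and 0.21 when scaled to NK genes (adjusted p = 0.342). Of these leukocyte genes, 12 of the 28 fell further and 16 fell less. Ccl4 had 60.6, 70.5, 51.3 and 34.2 CPM in tuNK 1 to 4, against 79.9, 57.3, 53.9 and 67.7 CPM in spNK 1 to 4, and the groups overlapped. Its log2 fold change was -0.26 ± 0.21 (adjusted p = 0.295, edgeR), and 1.48 after leukocyte scaling (adjusted p = 4.04e-05).

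Ratios of TPM within a library do not depend on the scaling between libraries, and were compared with an offset of 0.1 TPM by a two-sided exact permutation test over 70 assignments, whose smallest p is 0.0286. The ratio of Ccl3 to Ccl4 was 0.222, 0.206, 0.246 and 0.257 in tuNK 1 to 4, against 0.629, 0.721, 0.627 and 0.581 in spNK 1 to 4. It was 2.75-fold lower in tuNK, in 4 of 4 libraries (exact p = 0.0286, adjusted p = 0.04 over 7 ratios). The ratio of Ccl5 to Ccl4 was 5.46 to 7.52 in tuNK and 77.2 to 107 in spNK, a 13.2-fold difference, and that of Ccl5 to Ccl3 was 24.6 to 30.4 in tuNK and 123 to 149 in spNK, a 4.79-fold difference, with the same exact and adjusted p. In every tuNK library Ccl5 was lower relative to Ccl3, and Ccl3 lower relative to Ccl4, than in any spNK library. Such ratios still combine all cells of a library, and the part of cells other than NK cells was not tested.

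The promoter window of Ccl3 (chr11:83649329-83649628, minus strand, GRCm38.p6) is printed for its Runx motif, since Runx3 was among the transcription factor genes compared (34.6 ± 5.3 CPM in tuNK, 152 ± 21.8 CPM in spNK). Capitals mark the only match of the letters TGTGGT on either strand, at position -122, which 16.8% of all promoter windows held. Windows for Ccl4 and Ccl5 were not used here.
Ccl3: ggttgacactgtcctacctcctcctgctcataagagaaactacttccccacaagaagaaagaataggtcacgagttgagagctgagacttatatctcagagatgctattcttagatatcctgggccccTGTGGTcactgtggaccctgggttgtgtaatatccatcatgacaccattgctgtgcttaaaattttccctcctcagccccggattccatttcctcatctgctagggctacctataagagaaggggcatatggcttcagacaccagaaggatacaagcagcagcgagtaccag

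On the CPM scale Xcl1 (ENSMUSG00000026573, chromosome 1, 164931644 to 164935527) was the steadiest of the 10 genes, with a coefficient of variation of 7.93% in tuNK and 5.45% in spNK. It had 99.99, 84.6, 93.4 and 85.7 CPM in tuNK 1 to 4, against 64.3, 66.8, 59.8 and 60.1 CPM in spNK 1 to 4. All tuNK libraries were higher, by a modest step. The log2 fold change was 0.54 ± 0.09 (adjusted p = 2.16e-04, edgeR), a 1.45-fold rise, and a test against a fold of 1.5 did not call it (adjusted p = 0.658). It rose while all 28 leukocyte genes and all 12 NK genes fell, and scaled to them it was higher by 2.28 and 2.48 (adjusted p = 7.6e-08 and 1.24e-07). The ratio of Xcl1 to Ccl5 in TPM was 0.432, 0.273, 0.36 and 0.474 in tuNK 1 to 4, against 0.0141, 0.0154, 0.0205 and 0.0154 in spNK 1 to 4, which is 23.3-fold higher in tuNK (exact p = 0.0286, adjusted p = 0.04). Its TPM was 268 ± 45.6 in tuNK and 218 ± 12.8 in spNK (SD, n = 4 each), the second highest of the 10 genes in tuNK and the third in spNK. In TPM it was not the steadiest gene in tuNK, where Ltb had 175 ± 24.0 TPM.

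The promoter window of Xcl1 (chr1:164935473-164935772, minus strand, GRCm38.p6) is printed because it was the only one of the 8 genes' windows with a T-box motif, TCACACC, which 3.98% of all windows held on either strand. Capitals mark a Runx match at position -227 and the T-box match at position -188 relative to the gene start, both on the strand opposite to the gene.
Xcl1: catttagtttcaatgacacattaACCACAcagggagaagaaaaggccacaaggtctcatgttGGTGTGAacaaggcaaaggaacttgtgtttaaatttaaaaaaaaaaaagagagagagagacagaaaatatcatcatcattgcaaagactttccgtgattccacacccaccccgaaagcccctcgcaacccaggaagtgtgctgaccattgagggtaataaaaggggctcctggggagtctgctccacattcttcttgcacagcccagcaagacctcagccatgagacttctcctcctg

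Il16 (ENSMUSG00000001741, chromosome 7, 83642825 to 83745726) had 23.3, 39.2, 23.1 and 26.6 CPM in tuNK 1 to 4, against 204, 211, 170.3 and 211 CPM in spNK 1 to 4. The groups were far apart, and spNK 3 was the lowest of its group. The log2 fold change was -2.83 ± 0.17 (adjusted p = 2.84e-07, edgeR), a 7.09-fold lower level, and it stayed lower when scaled to leukocyte genes (-1.12, adjusted p = 8.0e-06) or to NK genes (-0.92, adjusted p = 9.34e-05). Only 2 of the 28 leukocyte genes and none of the 12 NK genes fell further. Its gene overlaps Stard5 on the other strand, which had 13.8 CPM in tuNK and 10.6 CPM in spNK and was not called (adjusted p = 0.247, edgeR). The strand setting of the counting is not given, so reads in the overlap may not be told apart. Il16 is also expressed by T and B cells, whose markers summed to lower values in every tuNK library than in any spNK library. Of the T cell markers, Cd8b1 and Cd5 averaged under 0.1 CPM in both groups. The part of T and B cells was not tested.

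**Figure D2:**
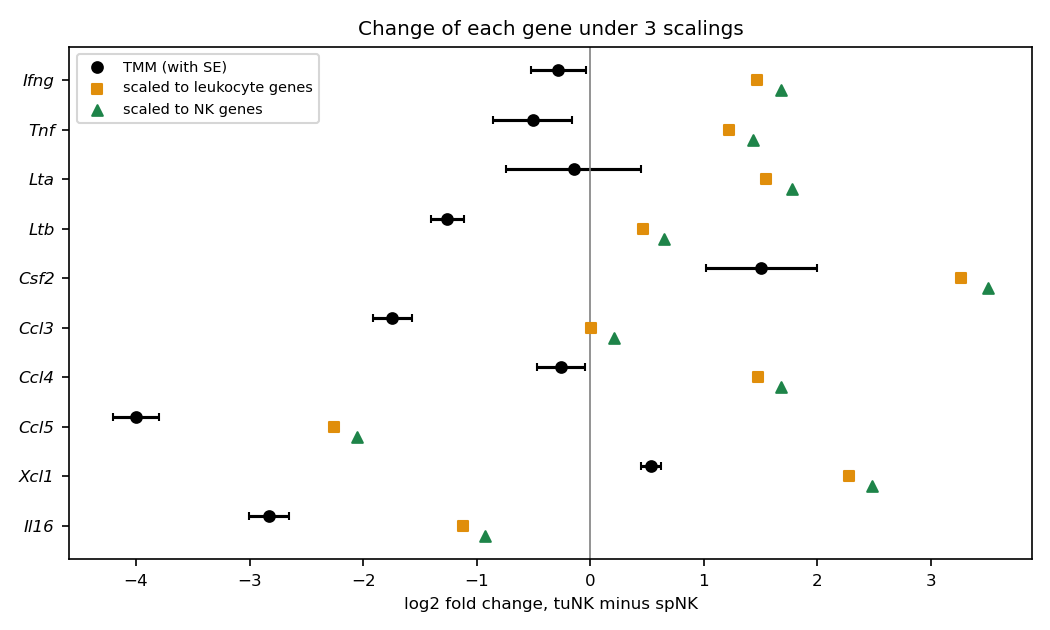
Log2 fold change of each gene (tuNK minus spNK) with TMM scaling (circles, ± SE of the edgeR fit), scaled to 28 leukocyte genes (squares) and scaled to 12 NK genes (triangles). Ccl5 and Il16 lie below 0 under the 3 scalings, Xcl1 and Csf2 above 0, and the other 6 genes cross or reach 0.

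Scaling to a list moved every gene upward, by construction, and the median log2 fold change of all tested genes with it, to 1.75 (leukocyte genes) or 1.94 (NK genes). Under both list scalings 9 of the 10 genes were called, 7 higher and 2 lower. Of all tested genes 85.0% were then called with leukocyte scaling (78.9% higher and 6.10% lower) and 86.2% with NK scaling (81.2% higher and 5.01% lower). The median of the 10 genes was 1.35 with leukocyte scaling and 1.56 with NK scaling, below that of all genes. Ccl5 and Il16 were the pair that stayed lower.

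The make-up of the secreted-factor RNA changed with these shifts. Summed over the 10 genes, tuNK libraries held 1035 to 1554 TPM and spNK libraries 10886 to 17501 TPM. Without Ccl5 the sums were 617 ± 81.3 TPM in tuNK and 1079.8 ± 102 TPM in spNK (SD, n = 4 each), so most of the gap was Ccl5. Ccl5 made up 53.4 ± 4.37% of the summed TPM in tuNK and 92.6 ± 0.837% in spNK. Xcl1 made up 20.3 ± 3.22% in tuNK and 1.51 ± 0.247% in spNK, and Ifng 1.16 ± 0.126% in tuNK and 0.15 ± 0.0246% in spNK. Among the 9 genes other than Ccl5, Xcl1 led in tuNK (43.4 ± 4.12%, against 20.3 ± 1.24% in spNK) and Ltb led in spNK (28.8 ± 6.12% in tuNK, against 46.3 ± 3.63% in spNK). The ratio of Ifng to Ccl5 was 0.0193 to 0.0252 in tuNK and 0.00131 to 0.00186 in spNK, 13.6-fold higher in tuNK (exact permutation p = 0.0286, adjusted p = 0.04). The ratio of Tnf to Ifng was 0.0619 to 0.107 in tuNK and 0.0664 to 0.118 in spNK, with groups that overlapped (exact permutation p = 0.543).

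**Figure D3:**
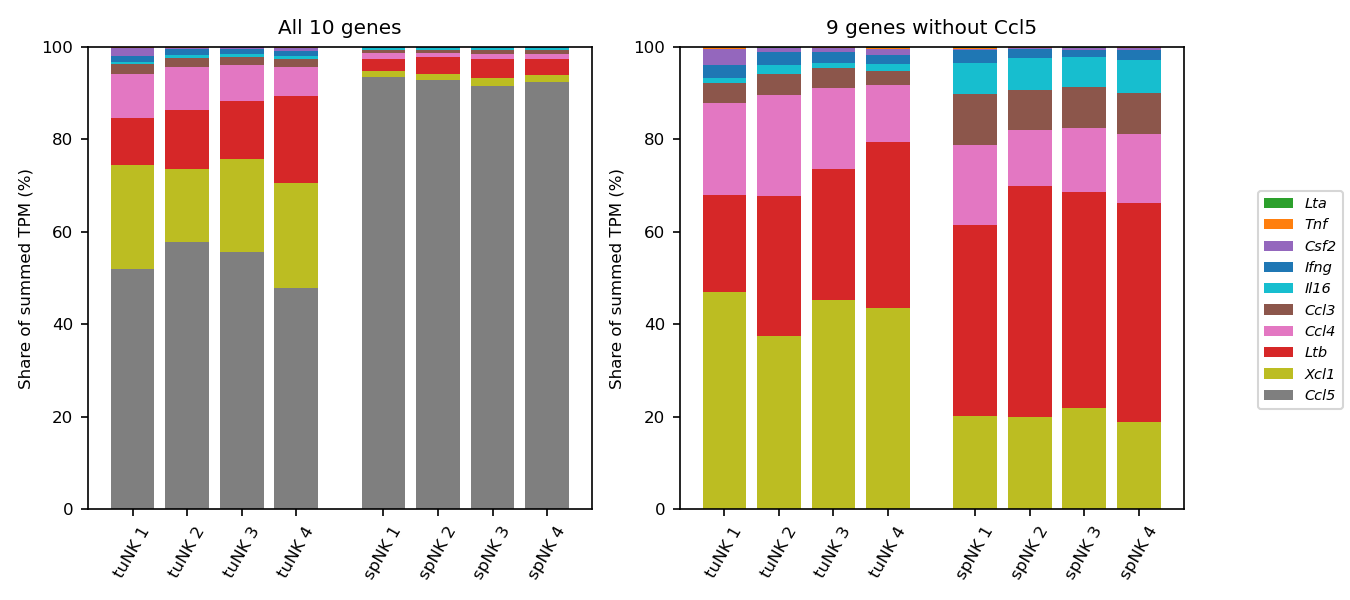
Share of the summed TPM (%) held by each gene in each library, for all 10 genes (left) and for the 9 genes without Ccl5 (right), tuNK 1 to 4 left of spNK 1 to 4. Ccl5 takes 53.4% on average in tuNK and 92.6% in spNK, and without it Xcl1 takes 43.4% in tuNK and 20.3% in spNK.

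The mRNAs of several cytokines carry AU-rich elements in their 3' UTRs, built from the pentamer ATTTA, to which proteins such as tristetraprolin (Zfp36) bind and speed decay. In the longest annotated 3' UTR of each gene (GENCODE M21), Csf2 held 9 pentamers, Tnf 8, Ifng 6, Ccl3 5, Lta 3, Ccl4 2 and Xcl1 1, while Ltb, Ccl5 and Il16 held 0. A share of 30.4% of the 12466 tested genes with an annotated 3' UTR held none. The 30 bases with most pentamers are printed for the 3 genes with the highest counts, with the pentamers in capitals.
Csf2 (bases 230 to 259 of its 3' UTR): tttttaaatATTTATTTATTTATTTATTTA
Tnf (bases 437 to 466): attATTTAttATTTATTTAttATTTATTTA
Ifng (bases 69 to 98): aacctATTTAttaatATTTAaaactATTTA

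The 3 genes without a pentamer were 3 of the 4 that fell with TMM scaling, of which Ltb was called higher and Ccl3 was not called with either list scaling. Ccl3, with 12.2 pentamers per kb of 3' UTR, was the other. The genes that rose or were not called had 5.24 per kb (Lta) to 28.4 per kb (Csf2), against a median of 1.29 per kb over all tested genes. Across all tested genes with an annotated 3' UTR, 37.2% were called higher and 35.6% lower. Of the 3788 genes without a pentamer 41.6% were called higher and 31.2% lower, and of the 8678 with at least 1 pentamer 35.2% were called higher and 37.5% lower, while of the 739 with at least 5 per kb 43.2% were called higher and 24.4% lower. The pattern in the 10 genes is a description made after their values were seen.

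**Figure D4:**
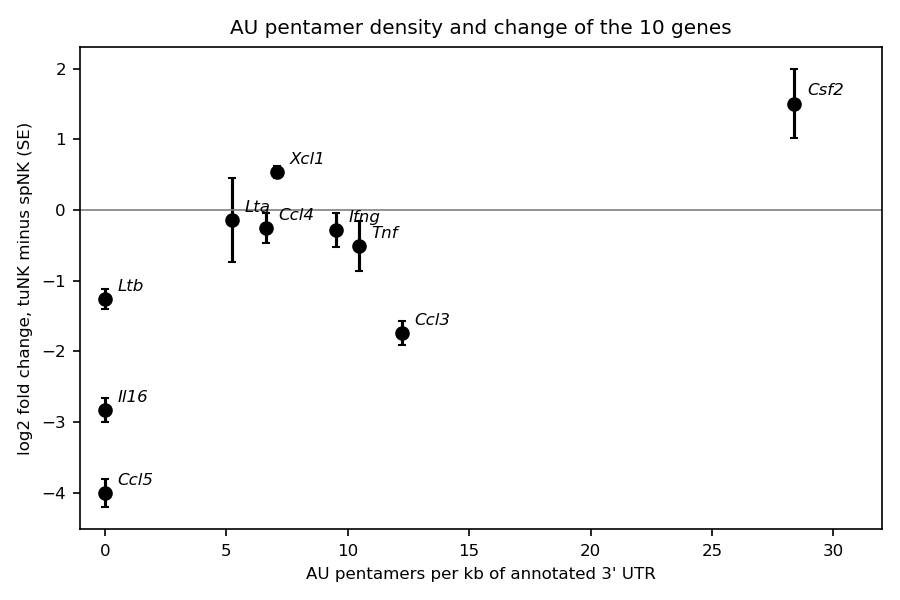
Log2 fold change (tuNK minus spNK, TMM scaling, ± SE of the edgeR fit) of the 10 genes against the number of AU pentamers per kb of 3' UTR. Ltb, Il16 and Ccl5 have no pentamer and lie at -1.26 (0.46 when scaled to leukocyte genes), -2.83 and -4.0, while Csf2, with 28.4 per kb, lies at 1.51.

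Receptors for the products of these genes moved in both directions. Of 13 receptor genes 3 were called higher and 8 lower (23.08% and 61.54%), against 35.6% and 34.0% of all tested genes. When scaled to leukocyte genes 7 were higher and 3 lower (53.85% and 23.08%), against 78.9% and 6.10% of all tested genes. Ltbr, the lymphotoxin receptor, stood at 57.7 ± 5.21 CPM in tuNK and 3.32 ± 2.12 CPM in spNK (log2 fold change 4.12, adjusted p = 1.83e-05, edgeR), and Ifngr2, the signalling chain of the interferon gamma receptor, at 37.5 ± 5.02 CPM in tuNK and 3.65 ± 1.93 CPM in spNK (3.36, adjusted p = 3.52e-05). Mesenchymal and epithelial cells also express these receptors, whose markers summed to 3053 to 4669 CPM (mesenchymal) and 47.2 to 67.4 CPM (epithelial) in tuNK, against 10.9 to 43.7 CPM and 1.23 to 4.45 CPM in spNK, and their part in these results was not tested. Ifngr1, the ligand-binding chain, changed by -0.98 (231 ± 15.9 CPM in tuNK, 454 ± 39.2 CPM in spNK, adjusted p = 3.6e-06), and after leukocyte scaling it went the other way, to 0.76. Tnfrsf1a, the widely expressed TNF receptor, changed by 0.43 (adjusted p = 0.00132) and Tnfrsf1b, the leukocyte one, by -0.60 (adjusted p = 0.00112), or 1.14 with leukocyte scaling. The GM-CSF receptor genes Csf2ra and Csf2rb, Xcr1 and Cd4 each averaged at most 1.12 CPM in tuNK and 2.68 to 8.54 CPM in spNK, and were called lower, as was Csf2rb2 (0.216 CPM in tuNK, 5.55 CPM in spNK), whose reads are hard to separate from those of Csf2rb. Xcr1 and the GM-CSF receptor mark dendritic and other myeloid cells, and dendritic markers summed to 49.8 to 80.1 CPM in tuNK and 244 to 615 CPM in spNK, with 7 of 8 called lower, whose part was not tested. With leukocyte scaling Csf2ra (-0.48) and Xcr1 (-1.0) were not called, nor with NK scaling, where Cd4 was not called either (-1.64). Ccr1 and Ccr3, chemokine receptor genes, were not called with TMM scaling, and Ccr1 was called higher with either list scaling.

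Receptors and signalling genes that induce cytokines in NK cells were mostly lower. With leukocyte scaling 11 of 20 genes were higher and 5 lower (55% and 25%), against 78.9% and 6.10% of all tested genes. With TMM scaling 1 was higher and 16 lower (5% and 80%), against 35.6% and 34.0% of all tested genes. The median log2 fold change was -1.21, against 0.02 for all tested genes. The gene called higher was Il12rb1, a chain of the interleukin 12 receptor (33.3 ± 6.81 CPM in tuNK, 22.4 ± 2.48 CPM in spNK, 0.57), named after its values were seen. Il18r1 and Il18rap, the chains of the interleukin 18 receptor, fell by 2.40 and 2.25 on the log2 scale (adjusted p = 1.18e-07 and 1.59e-07, edgeR), and the kinase genes Tyk2 and Jak1 by 2.20 and 2.21. These 4 were still called lower with leukocyte scaling (-0.68, -0.50, -0.47 and -0.48), and with NK scaling only Il18r1 was.

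Transcription factors that bind cytokine genes moved in both directions. Of 26 genes 7 were higher and 14 lower (26.92% and 53.85%, median -0.93), against 35.6% and 34.0% of all tested genes. With leukocyte scaling 14 were higher and 6 lower (53.85% and 23.08%), against 78.9% and 6.10% of all tested genes. Eomes and Ikzf3, lymphocyte factors, fell by 2.51 and 2.68 on the log2 scale (adjusted p = 5.61e-08 and 3.82e-08, edgeR) and were still called lower with either list scaling. Nfkb2, the NF-kB subunit of the non-canonical pathway, rose to 409.9 ± 49.8 CPM in tuNK, against 61.4 ± 5.04 CPM in spNK (2.74, adjusted p = 1.25e-08). Fos, an AP-1 subunit induced within minutes of a stimulus, had 357, 389, 178 and 286 CPM in tuNK 1 to 4, against 4.35, 4.53, 4.47 and 5.03 CPM in spNK 1 to 4 (6.04, adjusted p = 4.01e-08). Fos, Jun and Nfkb2 are expressed by mesenchymal cells as well, whose markers summed to 3053 to 4669 CPM in tuNK and 10.9 to 43.7 CPM in spNK, and their part was not tested.

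Among 15 genes of cytokine mRNA decay, processing and release, 4 were higher, 3 lower and 8 not called (median 0.06). These calls are 26.67% and 20% of the list, against 35.6% and 34.0% of all tested genes. With leukocyte scaling 14 were higher and 1 lower (93.33% and 6.667%), against 78.9% and 6.10% of all tested genes. Adam17, the protease that frees TNF from the membrane, changed by -1.32 (42.7 ± 3.82 CPM in tuNK, 107 ± 9.63 CPM in spNK, adjusted p = 8.08e-07, edgeR), while Rhbdf2, which escorts ADAM17 to the surface, rose by 1.80 (adjusted p = 1.98e-05). After leukocyte scaling Adam17 was at 0.41. Zfp36, named after its values were seen, had 553, 318.5, 114 and 161 CPM in tuNK 1 to 4, against 91.2, 95.6, 72.9 and 94.4 CPM in spNK 1 to 4. All tuNK libraries were higher, with a wide spread among them, and tuNK 1 was again the highest. Vamp3, a vesicle fusion protein, rose by 0.64 (adjusted p = 2.07e-04, edgeR), and Zc3h12d, a gene of the regnase family, fell by 3.35 (adjusted p = 2.68e-05).

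Of 16 tested genes induced by interferon gamma or TNF, 7 were higher, 4 lower and 5 not called (median 0.37). These calls are 43.75% and 25% of the list, against 35.6% and 34.0% of all tested genes. With leukocyte scaling 11 were higher (68.75%) and 0 lower, against 78.9% and 6.10% of all tested genes. Socs1, a feedback inhibitor of cytokine receptors, rose to 33.7 ± 5.53 CPM in tuNK, against 10.6 ± 1.55 CPM in spNK (1.67, adjusted p = 3.61e-06, edgeR). Icam1 and Birc3, targets of NF-kB, changed by -1.43 and -1.32, and by 0.32 and 0.41 with leukocyte scaling. Ccl2, a chemokine for monocytes that mesenchymal cells make, averaged 88.7 ± 46.8 CPM in tuNK and had 6 counts over the 4 spNK libraries. Other secreted factors numbered 21 in their list, of which 11 could be tested, with 5 higher and 5 lower (45.45% each). With leukocyte scaling 9 were higher (81.82%) and 0 lower, beside the same shares of all tested genes. The interleukin genes Il2, Il4, Il5, Il10 and Il13 each averaged under 0.2 CPM in both groups, and Il3, Il17a and Il22 had 0 counts in all 8 libraries. Vegfa rose to 74.7 ± 28.4 CPM in tuNK, against 2.55 ± 0.321 CPM in spNK, and Mif rose by 2.24 (adjusted p = 1.68e-07 and 7.47e-07, edgeR). Areg, an epidermal growth factor family gene, averaged 4.94 CPM in tuNK and had 0 counts in spNK, and Fasl, which encodes a membrane-bound death ligand, changed by -1.54 (0.18 with leukocyte scaling). Mesenchymal markers summed to 3053 to 4669 CPM in tuNK and 10.9 to 43.7 CPM in spNK. Epithelial markers summed to 47.2 to 67.4 CPM in tuNK and 1.23 to 4.45 CPM in spNK. The part of such cells in the results for Ccl2, Vegfa, Mif and Areg was not tested.

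**Figure D5:**
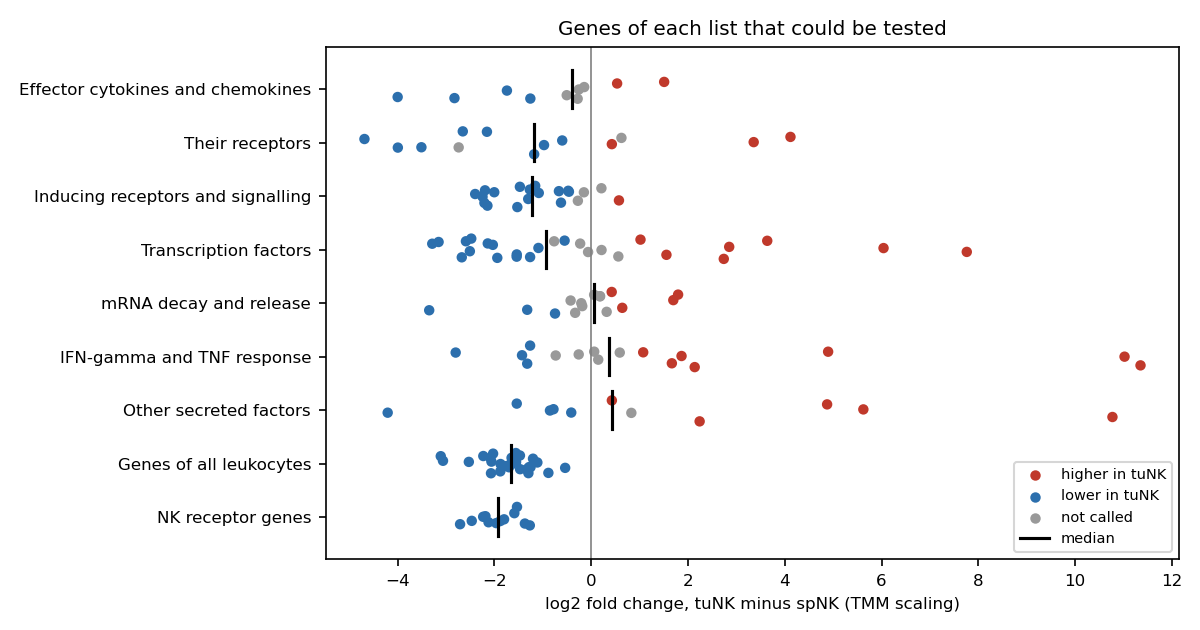
Log2 fold changes (tuNK minus spNK, TMM scaling) of the tested genes of each list; colour gives the edgeR call and black bars the median. The 10 effector genes spread from -4.0 to 1.51, and the genes of all leukocytes (median -1.67) and NK receptor genes (median -1.92) all lie below 0. With either list scaling Ltb was called higher and Ccl3 was not called.

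Genes next to the 10 on the chromosome were compared with them. Of 36 other protein-coding genes within 100 kb, 22 could be tested, of which 4 were higher, 9 lower and 9 not called. Of all tested genes 35.6% were called higher and 34.0% lower. The gene nearest to Ccl5, Heatr9, 3602 bases away, fell with it, to 0.691 CPM in tuNK against 10.1 CPM in spNK (-3.86, adjusted p = 5.74e-06, edgeR). The chemokine gene Ccl9, between Ccl5 and Ccl3, was not called (32.9 CPM in tuNK, 18.5 CPM in spNK, adjusted p = 0.136, edgeR). Ccl6, in the same interval, was called lower (1.06 ± 0.338 CPM in tuNK, 19.6 ± 32.5 CPM in spNK, adjusted p = 0.0196, edgeR). With either list scaling Ccl9 was called higher and Ccl6 was not called. Around Lta, Nfkbil1 was at 26.9 CPM in tuNK and 26.8 CPM in spNK, and Aif1, a macrophage gene, was lower (0.568 CPM in tuNK, 6.6 CPM in spNK).

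Likeness was measured as the root mean square distance between log2 profiles over the 8 libraries, each centred on its mean, among 8826 genes with a mean of at least 10 CPM. The profile of Ccl5 was nearest to those of Lfng (distance 0.23), Kcnj8 (0.23) and Trp53inp1 (0.25). The profile of Ifng was nearest to those of Atg16l1 (0.18), Gpc1 (0.19) and Arl15 (0.20), and that of Xcl1 to those of Ankrd46 (0.05), Akt1 (0.06) and Tm9sf4 (0.06).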

How the data were processed

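RNA of sorted NK cells was sequenced in 8 libraries made from 20 ng of RNA each with a directional kit that selects polyadenylated RNA, as paired reads of 60 nt, per the labels. The submitters' processing notes name FastQC (0.11.9), STAR, Salmon and the build GRCm38. The sources used here do not state the strand setting, the annotation or the other versions. The authors deposited estimated counts per gene (7.90 to 8.82% of a library's values are not whole numbers) and TPM values.

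CPM values are from the estimated counts as deposited, which were rounded for the tests in edgeR 4.0.16 (filterByExpr by group, which kept 14006 genes, TMM scaling, robust quasi-likelihood F test, Benjamini-Hochberg adjustment, threshold 0.05). Standard errors were derived from the F statistic. The edgeR steps were run on simulated counts in which few genes changed, equally in both directions. That setting does not test the scaling between libraries when most genes change. List scaling set the geometric mean of a list, with an offset of 0.5, equal in all libraries. Of 245 listed symbols 243 matched 1 identifier each, and 28 of the 30 leukocyte genes could be used. The 10 genes, the lists and the comparisons were chosen with earlier results of these data known, and the AU pentamers were examined after the values were seen. Named genes are the 10, their receptors, up to 4 genes per list with the smallest adjusted p, the 3 nearest profiles and chromosomal neighbours, and other genes are named as chosen after their values were seen. Results for some listed genes are not reported here. Promoter windows came from RefSeq (GRCm38.p6), matched 8 of the 10 genes, and were searched on both strands for TGANTCA (AP-1), TCACACC (T-box), TGTGGT (Runx), TGACGT (CRE) and NF-kB. AP-1 was found in Il16 and CRE in none of the 8, against 7.81% and 7.51% of all windows. Alternatives were other scalings, filters and tools (DESeq2 1.42.0, limma 3.58.1), TPM, a minimum fold of 1.5, the replicate block and leaving out libraries. The deviations of same-numbered libraries from their group means had correlations of -0.0081 to 0.0417, and those of other pairs -0.0641 to 0.0354. Such values cannot decide whether the numbers pair the libraries, because samples of the same mouse need not deviate together. Every mapped column was used, and 0 columns lacked a sample. Low counts limit Tnf and Lta most, and PCR copies are not independent molecules.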

Additional observations from a re-analysis of the deposited data

Results flagged for a closer look

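Of 34 sets of 4 values checked (10 genes and 7 ratios in each group), 2 held a library that stood apart from the other 3 by Dixon's test at the 95% level, and chance alone picks out about 1 set in 20. In tuNK, Csf2 was high in tuNK 1 (14.2 CPM, against 3.01 to 4.82 CPM in the other 3 libraries), a gap of 0.838 of the range. In spNK, Il16 was low in spNK 3 (170.3 CPM, against 204 to 211 CPM in the other 3), a gap of 0.837 of the range. The NK marker sum of spNK 3 was also the lowest of its group (9937 CPM), and its part here was not tested. The libraries of tuNK did not overlap with those of spNK for either gene on the CPM scale, and Il16 was called under all alternatives tried, while Csf2 was not called without tuNK 1.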

How the results depend on the processing

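Ccl5 and Il16 kept their direction and call under the 22 alternatives tried, with log2 fold changes of -4.26 to -2.06 and -3.09 to -0.92. Scaling to leukocyte genes or to NK genes reversed 6 of the 10 genes, Ifng (1.47 and 1.68), Tnf (1.22 and 1.43), Lta (1.55 and 1.78), Ltb (0.46 and 0.65), Ccl3 (0.0067 and 0.21) and Ccl4 (1.48 and 1.68). The same scalings reversed Ifngr1 (0.76 and 0.96), Tnfrsf1b (1.14 and 1.35), Adam17 (0.41 and 0.62), Icam1 (0.32 and 0.53), Birc3 (0.41 and 0.64) and Fasl (0.18 and 0.38). They gave 11055 and 11370 higher and 855 and 702 lower genes, since each lifts every gene by the fall of its list. Lta also changed sign by limma-voom (0.090), with the replicate block (0.035) and without spNK 1, and leaving out each library gave -0.47 to 0.33. Csf2 was not called by limma-voom (1.19), on the log2 TPM scale (0.93 with an offset of 0.1, 0.83 with 1), against a fold of 1.5 (adjusted p = 0.0523) or without tuNK 1 (0.70). Without spNK 3 and tuNK 1 together, a choice made after seeing the data, Csf2 was at 0.70 and not called, and Ifng was called lower (-0.52, adjusted p = 0.0431). Xcl1 was not called against a fold of 1.5, and that test called 6378 genes, 3028 of them lower. Library size alone shifted the median of all genes to -0.15 and gave 4329 higher and 5510 lower genes, and log2 TPM with an offset of 1 shifted it to -0.14 and gave 3978 higher and 5484 lower. The replicate block called 9555 genes and changed no call among the 10. Leaving out each library gave 9451 to 9907 called genes. With an offset of 1 TPM the log2 ratio of Tnf to Ifng differed by 0.071 and that of Ltb to Lta by -1.37, which was called, and leaving out each library gave -1.74 to -0.86 for the second, called without spNK 1. The causes of these changes were not tested.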
